A study of Mus musculus with 2 samples.

Results

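The genes described here are 10 calcium handling genes of muscle, taken as a fixed list out of the 32285 genes that were counted: Pvalb, Atp2a1, Atp2a2, Sln, Casq1, Casq2, Ryr1, Trdn, Jsrp1 and Cacng1. All 10 were present in both count tables. Their levels were followed from muscle stem cells (MuSCs) through differentiating Myog cells and late myocytes to droplets that carried adult myofiber RNA, in a sham library and in a library taken after mechanical overload (MOV).

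Both libraries came from plantaris muscle of 26-week-old mice that carried Pax7rtTA, a doxycycline-dependent transactivator under Pax7 control, together with TRE-H2B-GFP, a histone-GFP reporter that the transactivator switches on. Mice of both groups drank doxycycline at 2.0 mg/mL for 2 weeks, so the controls carried the same alleles and the same drug. The sham group had the incision and the plantaris tendon probed. The MOV group had synergist ablation, in which part of the gastrocnemius and soleus is cut away so that the plantaris bears the load. Both groups were collected 5 days after surgery. The labels describe the sort as antibodies against VCAM, CD31, CD45 and Sca1, while the design text describes a sort by GFP. The labels speak of 1 mouse and the methods of several mice per group, and the files hold no map from cells to mice.

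Each condition was measured in 1 library made with a 10x Genomics 3′ kit. Here a droplet barcode and a unique molecular identifier (UMI) are joined to each captured transcript, and UMIs are counted. There is therefore no spread between replicates and no test between groups. Levels are UMIs of a gene scaled to 1000000 UMIs of a class of barcodes (CPM), with exact 95% Poisson intervals in parentheses, and differences are log2 ratios of these levels with exact conditional intervals. All intervals cover counting error only, and not the spread between cells or mice. A gene is called higher or lower where the level differed at least 2-fold and both classes together held at least 20 UMIs.

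The sham library held 1100 barcodes and 7302661 UMIs (median 4116.5 per barcode), and the MOV library 3854 barcodes and 88498487 UMIs (median 16836). Although the sample was labelled as MuSCs, 441 sham barcodes carried adult myosin heavy chain (MyHC) RNA above the limits for a fibre droplet, against 23 in MOV. By the MyHC gene with at least 60% of the adult MyHC UMIs, the sham fibre droplets were 265 Myh4-dominant, 111 Myh1-dominant and 46 Myh2-dominant, with 19 mixed, and the MOV fibre droplets were 4, 11 and 6, with 2 mixed. Late myocytes, which carry developmental MyHC RNA (Myh3 and Myh8), numbered 41 in MOV and 0 in sham, and Myog cells numbered 279 and 2. MuSCs, called by Pax7, numbered 1003 in MOV and 60 in sham. The 6 genes of a MuSC marker list summed to 4936 CPM in sham MuSCs and 2192 CPM in MOV MuSCs, and Vcam1, the sorting antigen, stood at 574 and 673 CPM. The same list summed to 4343 CPM in sham and 840.4 CPM in MOV fibro-adipogenic-like barcodes, where Vcam1 stood at 32.4 and 186 CPM, so the list is not particular to MuSCs. Fibro-adipogenic-like barcodes, called by Pdgfra, served as cells that should lack muscle genes and numbered 316 in MOV and 20 in sham.

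A set of 44 barcodes occurred in both libraries, and in 39 of them the MOV copy was the shallower, with a median of 2.12% of the UMIs of the sham copy. They included 3 of the 4 MOV Myh4-dominant droplets, 21 sham fibre droplets and 5 sham MuSCs. All results include them, and some are also given without them. Sham fibre droplets were shallow (median 4535 UMIs) and MOV late myocytes deep (median 52840 UMIs). Malat1, a nuclear RNA, stood at 22.0 CPM in sham Myh4-dominant, 2775 CPM in Myh1-dominant and 3227 CPM in Myh2-dominant droplets, against 24596 CPM in sham MuSCs, and 10 of the 441 sham fibre droplets held at least 0.1% of their UMIs in it.

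Contraction of skeletal muscle begins when the voltage sensor in the surface membrane, a calcium channel complex to which the γ1 subunit encoded by Cacng1 belongs, opens the ryanodine receptor (Ryr1) of the sarcoplasmic reticulum (SR). Inside the SR, calsequestrin (Casq1 in skeletal muscle, Casq2 in heart and slow muscle) stores calcium near the channel, held there by triadin (Trdn) and by the junctional protein encoded by Jsrp1. Relaxation follows as SERCA pumps (Atp2a1 in fast fibres, Atp2a2 in slow fibres, heart and, as another isoform, most other cells) return calcium to the SR, with sarcolipin (Sln) restraining the pump and parvalbumin (Pvalb) binding calcium in the cytosol. Fast fibres are graded by their MyHC, from Myh4 (type IIB, the fastest) through Myh1 (type IIX) to Myh2 (type IIA).

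RefSeq sequence of the 250 bases before the start site, on GRCm38.p6, was matched for 5 of the 10 genes (Pvalb, Casq1, Casq2, Atp2a1 and Ryr1). The stretches of 4 are shown because these genes carry the main contrasts below, Pvalb and Atp2a1 between fibre types and the 2 calsequestrin genes between fibres and new myocytes. Capitals mark E-boxes (CANNTG, the motif bound by MyoD family factors, which reads the same on both strands) and matches to the MEF2 consensus on either strand, and no marked match overlapped another. The windows lie at chr15:78206401-78206650 on the minus strand for Pvalb (at 1 of its 2 RefSeq starts), chr1:172219896-172220145 on the minus strand for Casq1, chr3:102086165-102086414 on the plus strand for Casq2 and chr7:126463074-126463323 on the minus strand for Atp2a1, and each is written 5′ to 3′ on its own strand.
Pvalb: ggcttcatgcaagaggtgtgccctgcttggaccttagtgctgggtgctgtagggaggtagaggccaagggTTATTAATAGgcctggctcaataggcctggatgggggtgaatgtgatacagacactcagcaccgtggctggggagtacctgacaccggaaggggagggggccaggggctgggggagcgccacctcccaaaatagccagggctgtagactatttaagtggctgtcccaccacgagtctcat
Casq1: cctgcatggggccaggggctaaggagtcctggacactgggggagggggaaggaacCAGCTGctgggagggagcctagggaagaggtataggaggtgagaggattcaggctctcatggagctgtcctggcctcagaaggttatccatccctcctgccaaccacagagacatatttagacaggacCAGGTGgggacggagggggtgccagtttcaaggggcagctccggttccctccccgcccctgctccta
Casq2: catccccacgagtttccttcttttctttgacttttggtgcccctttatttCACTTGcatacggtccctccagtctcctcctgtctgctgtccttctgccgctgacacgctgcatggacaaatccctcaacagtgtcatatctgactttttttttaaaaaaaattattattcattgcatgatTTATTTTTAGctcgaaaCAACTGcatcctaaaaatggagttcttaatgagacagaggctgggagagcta
Atp2a1: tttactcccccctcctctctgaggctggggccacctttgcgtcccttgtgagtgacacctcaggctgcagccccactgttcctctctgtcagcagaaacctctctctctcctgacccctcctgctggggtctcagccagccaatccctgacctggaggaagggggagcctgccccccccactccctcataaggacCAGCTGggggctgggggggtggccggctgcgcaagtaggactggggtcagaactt
The Casq1 window held E-boxes at 195 and 67 bases before the start, the Casq2 window at 200 and 52 bases, and the Atp2a1 window at 55 bases. No E-box was found in the windows of Pvalb and Ryr1. At least 1 E-box was present in 66.2% and at least 2 in 31.8% of 32851 promoter windows of this length, so these matches are common. A MEF2 match was present 180 bases before the start of Pvalb and 69 bases before that of Casq2, and in 2.92% of all windows. A match is a stretch of letters and not evidence of binding.

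Across the fibre types of the sham library, the genes of the fast calcium cycle followed the order Myh4, Myh1, Myh2, but by very different amounts. Pvalb was 67.4-fold higher in Myh4- than in Myh2-dominant droplets, whereas Jsrp1 differed by 0.39 on the log2 scale. Of the 10 genes, 7 had enough UMIs to compare Myh4- with Myh2-dominant droplets, and 5 of them (Pvalb, Ryr1, Casq1, Cacng1 and Atp2a1) were at least 2-fold higher in Myh4-dominant droplets and 0 lower. Over all 4691 genes compared, 12.3% were that much higher and 13.8% that much lower, and the median log2 ratio was 2.13 for the 7 genes and −0.11 for all genes. The other 3, Casq2, Atp2a2 and Sln, were near 0 in every sham fibre class.

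Pvalb (ENSMUSG00000005716, chr15:78191114-78206400 on the minus strand of GRCm38), the cytosolic calcium buffer, stood at 6757 CPM (6632 to 6884) in Myh4-dominant, 2066 CPM (1966 to 2170) in Myh1-dominant and 100.2 CPM (71.9 to 136) in Myh2-dominant droplets. No 2 of these intervals overlapped. The log2 ratio was 6.07 (5.63 to 6.55) between Myh4- and Myh2-dominant, 1.71 (1.63 to 1.79) between Myh4- and Myh1-dominant and 4.37 (3.92 to 4.85) between Myh1- and Myh2-dominant droplets. The step from Myh1 to Myh2 was thus the larger on the log2 scale. A Pvalb UMI was seen in 264 of 265, 101 of 111 and 17 of 46 droplets, and the median droplet held 6070 CPM, 1627 CPM and 0 CPM. After each droplet had been thinned to 1000 UMIs, with 30, 7 and 5 shallower droplets left out, the share with a Pvalb UMI was 97.4%, 71.2% and 12.2%. It was then 0 of 60 in sham MuSCs, with an upper interval limit of 5.96%. Without the droplets that held Malat1, the Myh4 to Myh2 ratio of Pvalb was 6.55, and without the barcodes found in both libraries it was 5.95.

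Atp2a1 (ENSMUSG00000030730, chr7:126445858-126463108, minus strand), the fast SERCA pump, was high in all fibre types, with 4628 CPM (4525 to 4734) in Myh4-dominant, 4054 CPM (3913 to 4198) in Myh1-dominant and 2100.0 CPM (1962 to 2245) in Myh2-dominant droplets. It was seen in 261 of 265, 108 of 111 and 43 of 46 droplets. The log2 ratio of Atp2a1 was 1.14 (1.04 to 1.24) between Myh4- and Myh2-dominant droplets, and it was under 2-fold with 0.98 when the shared barcodes were left out and with 0.88 when levels were scaled to pan-fibre genes. Between Myh4- and Myh1-dominant droplets Atp2a1 differed by 0.19 (0.13 to 0.25). The pump gene therefore separated Myh2-dominant droplets from the other two types, and these from each other only slightly. Rabep2 overlaps Atp2a1 on the opposite strand.

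Atp2a2 (ENSMUSG00000029467, chr5:122453513-122502225, minus strand), the slow and general SERCA pump, gave 5, 0 and 2 UMIs in the 3 sham fibre classes. Sln (ENSMUSG00000042045, chr9:53850164-53854560, plus strand), the pump inhibitor, gave 5, 2 and 5 UMIs, which is 3.06, 2.57 and 12.2 CPM. Both genes were thus at a few UMIs per class, too few for an order between fibre types.

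Casq1 (ENSMUSG00000007122, chr1:172209894-172219868, minus strand), the calcium store protein of fast fibres, stood in the same order as Pvalb with smaller steps, at 862 CPM (817 to 908), 436 CPM (391 to 485) and 181 CPM (142 to 227). The log2 ratio was 2.25 (1.91 to 2.61) between Myh4- and Myh2-dominant and 0.98 (0.81 to 1.16) between Myh4- and Myh1-dominant droplets, so that the step lay at the 2-fold limit. It was seen in 216 of 265, 78 of 111 and 27 of 46 droplets. Casq2 (ENSMUSG00000027861, chr3:102086415-102146514, plus strand), the cardiac and slow form, which the predicted genes Gm43244 and 4632404M16Rik overlap on the same strand, gave 0, 1 and 3 UMIs. Counted against each other, Casq2 made up 0 of 1408 calsequestrin UMIs in Myh4-dominant droplets, which allows a share of up to 0.213% by the limit of 3 counts (exact upper limit 0.262%), and 3.896% (0.811% to 11.0%) of 77 in Myh2-dominant droplets.

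Ryr1 (ENSMUSG00000030592, chr7:29003344-29125179, minus strand), the calcium release channel, stood at 188 CPM (167 to 210.1) in Myh4-dominant, 166 CPM (139 to 197) in Myh1-dominant and 39.1 CPM (22.4 to 63.5) in Myh2-dominant droplets. The first 2 intervals overlapped, with a log2 ratio of 0.18 (−0.12 to 0.49), and the Myh2-dominant droplets lay below, with a log2 ratio of 2.26 (1.54 to 3.09) against Myh4. Only 16 UMIs in 10 droplets made up the Myh2 value. Cacng1 (ENSMUSG00000020722, chr11:107703218-107716522, minus strand), the γ1 subunit of the voltage sensor, showed separate intervals in all 3 types, at 332 CPM (305 to 361), 202 CPM (172 to 236) and 75.8 CPM (51.5 to 108). Its log2 ratio was 2.13 (1.61 to 2.70) between Myh4- and Myh2-dominant droplets and 0.72 (0.46 to 0.98) between Myh4- and Myh1-dominant droplets.

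Between Myh4- and Myh2-dominant droplets, the genes for the proteins that hold the store to the channel had the smallest ratios of the 7. Trdn (ENSMUSG00000019787, chr10:33080554-33476709, plus strand), which anchors calsequestrin, stood at 878 CPM (833 to 924), 628 CPM (573 to 686) and 449.8 CPM (387 to 519.7), a log2 ratio of 0.96 (0.74 to 1.19) between the ends. Jsrp1 (ENSMUSG00000020216, chr10:80808496-80813498, minus strand), which encodes a junctional SR protein, stood at 690.3 CPM (651 to 732), 634 CPM (579 to 693) and 528 CPM (459.98 to 603). Neighbouring classes of Jsrp1 overlapped in their intervals, and the ends differed by 0.39 (0.18 to 0.60) on the log2 scale. Under TMM scaling, which moved the median of all genes in this comparison by 0.56, Trdn came to 1.52 and Jsrp1 to 0.95, so that 6 of the 7 genes passed 2-fold. Erythroid genes, which should not be in fibres, summed to 480.4 CPM in Myh4-dominant droplets and to 14.2 and 14.7 CPM in Myh1- and Myh2-dominant droplets, and their part in these ratios was not tested.

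**Figure D1:**
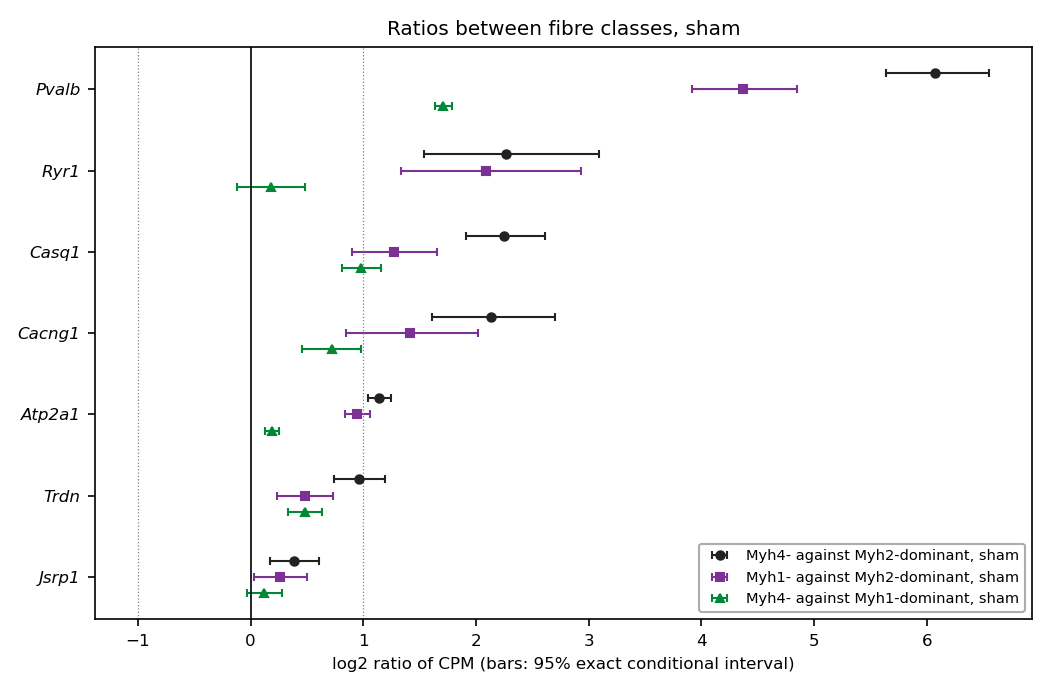
Log2 ratios of the level of each gene (horizontal axis) between sham fibre droplet classes, with bars for the exact 95% counting interval, for genes with at least 20 UMIs in the compared classes and dotted lines at 2-fold. Pvalb lies farthest to the right, at 6.07 between Myh4- and Myh2-dominant droplets, and Jsrp1 nearest to 0, at 0.39.

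Between neighbouring types the counts were smaller. Against Myh1-dominant droplets, 1 of 7 genes (Pvalb) was at least 2-fold higher in Myh4-dominant droplets, where 4.81% of all genes were, and 0 were lower, where 7.28% were. Against Myh2-dominant droplets, 4 of 7 genes (Pvalb, Ryr1, Cacng1 and Casq1) were at least 2-fold higher in Myh1-dominant droplets, where 7.74% of all genes were, and 0 were lower, where 6.37% were. The remaining 3 ratios in that comparison were 0.95 for Atp2a1, 0.48 for Trdn and 0.26 for Jsrp1. With the few MOV fibre droplets added to each sum, Pvalb came to 6.12 between Myh4- and Myh2-dominant droplets and Trdn to 1.15, and Cacng1 came down to 1.35.

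Myh1-dominant droplets were not uniform, and the level of some genes differed with the other MyHC they held. Droplets with Myh4 UMIs and no Myh2 UMI (41 droplets) held Pvalb at 3035 CPM (2850 to 3229), those with neither (46 droplets) at 1830 CPM (1663 to 2008), and those with Myh2 and no Myh4 (24 droplets) at 792 CPM (675 to 923). No droplet of the 111 held both. Casq1 followed with 543, 443 and 257 CPM, Atp2a1 with 4815, 4061 and 2826 CPM and Cacng1 with 233, 211 and 141 CPM. Trdn, at 643, 559 and 685 CPM, had no such order. Jsrp1 stood at 655, 666 and 563 CPM. Ryr1 ran the other way, at 81.9 CPM (53.9 to 119) with Myh4, 215 CPM (161 to 282) with neither and 243 CPM (180.2 to 320.1) with Myh2, and the first of these intervals lay apart from the rest. The median depths of these droplets were 5040, 4524.5 and 6266.5 UMIs.

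The sham fibre droplets were also binned by the share of Myh4 among their adult MyHC UMIs, where the order held for Pvalb but not for all genes. Pvalb stood at 920 CPM in the 126 droplets with under 10% Myh4, at 2876 CPM in 33 droplets from 10% to 40%, at 4663 CPM in 17 droplets from 40% to 60%, at 6440 CPM in 43 droplets from 60% to 90% and at 6840 CPM in 222 droplets above that. It was thus higher in each bin than in the one before, while Jsrp1 ranged from 577 to 699 CPM over the same bins. Casq1 went from 284 to 892 CPM, with a dip to 454 CPM in the bin of 17 droplets. Atp2a1 had no steady order, at 2775, 5343, 2927, 4175 and 4748 CPM from the lowest bin to the highest. Cacng1 was at 133, 227, 284, 388 and 318 CPM, highest in the bin from 60% to 90%. Ryr1 was at 133, 85.7, 136, 159 and 196 CPM, and Trdn at 522, 700.5, 477, 817 and 894 CPM. Across the 397 sham fibre droplets with at least 1000 UMIs, Spearman's rho with the Myh4 share was 0.70 for Pvalb, 0.41 for Casq1, 0.29 for Atp2a1, 0.24 for Cacng1, 0.20 for Trdn, 0.15 for Ryr1 and 0.10 for Jsrp1. These droplets share a library, and the genes differ in their number of UMIs per droplet.

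**Figure D2:**
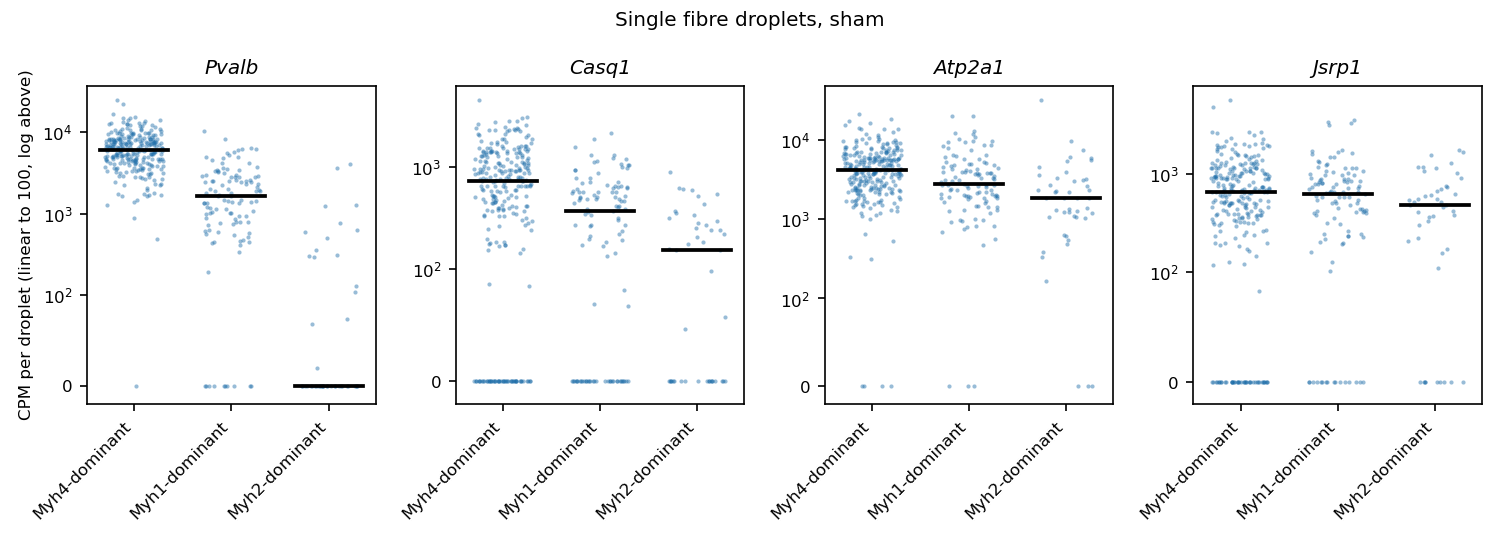
Level of Pvalb, Casq1, Atp2a1 and Jsrp1 in single sham fibre droplets (CPM on an axis that is linear to 100 and logarithmic above), by dominant MyHC, with a line at the median. The Pvalb medians step from 6070 to 1627 to 0 CPM, while those of Jsrp1 are 646, 621 and 479 CPM.

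The other genes of calcium handling were taken from a list of 61, of which 59 were found in the files. Between Myh4- and Myh2-dominant droplets, 11 of the 41 with enough UMIs were at least 2-fold higher and 3 lower, and 6 of the 13 calcium sensors were among the higher. Over all genes the shares were 12.3% and 13.8%. Itpr1, the inositol trisphosphate receptor type 1, was at least 10.3-fold higher with 123 UMIs against 0, and Camk2a, a calmodulin-dependent kinase, had a log2 ratio of 2.16. S100a1, a calcium-binding protein that acts on the release channel, had a log2 ratio of −1.45. The median over the 41 genes was 0.61, against −0.11 for all genes. Itpr1 also led the comparison of Myh4- with Myh1-dominant droplets at 2.06, where 2 of 42 genes were higher and 1 lower, against 4.81% and 7.28% of all genes, so that the count of higher genes was at the background.

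In the MOV library, 7 of the 10 genes (all but Pvalb, Casq1 and Atp2a2) were at least 2-fold higher in Myog cells than in MuSCs and again at least 2-fold higher in late myocytes than in Myog cells. Between late myocytes and MuSCs, 8 of 10 genes were at least 2-fold higher in late myocytes, where 10.7% of all genes were, and 0 were lower, where 19.1% of all genes were. The median log2 ratio was 4.07 for the 10 genes and −0.22 for all genes. The exceptions were Atp2a2, at 0.82, and Pvalb, at 0.35. Between Myog cells and MuSCs, 7 of 10 genes were at least 2-fold higher, where 4.18% of all genes were, and 0 lower, where 6.42% were, with medians of 1.79 and −0.07. Between late myocytes and Myog cells, 8 of 10 were higher, where 6.98% of all genes were, and 0 lower, where 10.8% were.

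Casq2 had the widest range. It stood at 0.663 CPM (0.411 to 1.01) in MuSCs, 10.6 CPM (8.83 to 12.5) in Myog cells and 285 CPM (264 to 308) in late myocytes, against 0.564 CPM in fibro-adipogenic-like barcodes. The MuSC level was therefore not above that of cells that should lack the gene. The log2 ratio of Casq2 between late myocytes and MuSCs was 8.75 (8.12 to 9.45), and between late myocytes and Myog cells 4.75 (4.48 to 5.04). A Casq2 UMI was seen in 28 of 41 late myocytes and 28 of 279 Myog cells. With each cell thinned to 10000 UMIs, which left out 36 Myog cells, 68 MuSCs and 9 fibro-adipogenic-like barcodes, the share with a Casq2 UMI was 58.5% of late myocytes, 3.70% of Myog cells, 0.535% of MuSCs and 0.651% of fibro-adipogenic-like barcodes.

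Casq1, the fast form, came later in this order. It stood at 3.44 CPM in MuSCs, 3.01 CPM in Myog cells and 84.0 CPM (72.6 to 96.6) in late myocytes. Myog cells and MuSCs did not differ beyond the counting interval (log2 ratio −0.20, −0.77 to 0.35), while late myocytes were above Myog cells by 4.80 (4.29 to 5.35). Of the 194 late myocyte UMIs of Casq1, 57 came from 1 cell, and the level without that cell was 61.2 CPM. A UMI was seen in 21 of the 41 late myocytes.

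Cacng1 and Jsrp1 were already above background in MuSCs. Cacng1 stood at 41.7 CPM (39.4 to 44.0) in MuSCs, 153 CPM (147 to 161) in Myog cells and 578 CPM (548 to 610.0) in late myocytes, with 2.26 CPM in fibro-adipogenic-like barcodes. All 41 late myocytes held a Cacng1 UMI. Jsrp1 stood at 84.5 CPM (81.3 to 87.7), 188 CPM (181 to 196) and 423 CPM (397 to 450.2), with 5.97 CPM in fibro-adipogenic-like barcodes. The thinned shares with a UMI in MuSCs were 25.6% for Cacng1 and 56.6% for Jsrp1 (44.97% and 78.3% before thinning), and in fibro-adipogenic-like barcodes 2.61% and 5.21% (6.96% and 14.9%).

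Ryr1 stood at 6.70, 21.8 and 123 CPM, and Trdn at 4.64, 17.1 and 163 CPM, in MuSCs, Myog cells and late myocytes. The log2 ratio of late myocytes to MuSCs was 4.20 (3.94 to 4.47) for Ryr1 and 5.13 (4.86 to 5.42) for Trdn. Both were seen in most late myocytes, 39 and 33 of 41.

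Of the pump genes, Atp2a1 stood at 22.6 CPM (21.0 to 24.3) in MuSCs, 94.8 CPM (89.4 to 100.4) in Myog cells and 348 CPM (324 to 373) in late myocytes, a log2 ratio of 3.95 (3.80 to 4.09) between the ends. Atp2a2 was near constant by comparison, at 134 CPM (130 to 138), 139 CPM (132 to 145) and 236 CPM (217 to 257), with 161 CPM in fibro-adipogenic-like barcodes. MuSCs and Myog cells did not differ in Atp2a2 beyond the counting interval (0.05, −0.03 to 0.13). Sln stood at 2.50, 9.92 and 113 CPM, but 137 of its 262 UMIs in late myocytes and 75 of its 122 UMIs in Myog cells each came from 1 cell. Without those cells Sln stood at 55.0 CPM in late myocytes and 3.84 CPM in Myog cells, so that the step from MuSCs to Myog cells was under 2-fold, and it was seen in 15 of 41 late myocytes.

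Pvalb did not differ between these cells beyond counting error. Its level was 2.72 CPM (2.17 to 3.35) in MuSCs, 2.68 CPM (1.85 to 3.77) in Myog cells and 3.46 CPM (1.50 to 6.82) in late myocytes. The late myocyte value rested on 8 UMIs in 6 cells.

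**Figure D3:**
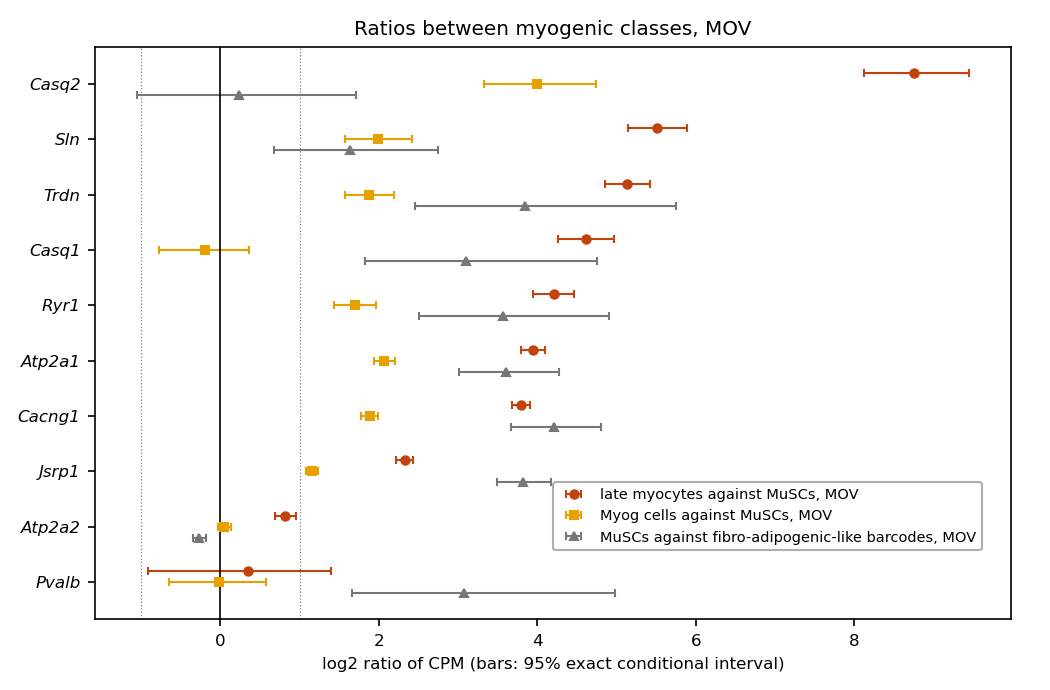
Log2 ratios of the level of each gene (horizontal axis) in the MOV library for late myocytes against MuSCs, Myog cells against MuSCs and MuSCs against fibro-adipogenic-like barcodes, with bars for the exact 95% counting interval and dotted lines at 2-fold. Casq2 lies farthest to the right for late myocytes, at 8.75, and Pvalb and Atp2a2 lie nearest to 0, at 0.35 and 0.82.

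Even in MuSCs, most of these genes stood above the fibro-adipogenic-like barcodes of the same library. There 8 of 10 genes were at least 2-fold higher in MuSCs, where 14.9% of all genes were, and 0 were lower, where 19.1% were. The log2 ratio was 4.21 for Cacng1, 3.85 for Trdn, 3.82 for Jsrp1, 3.61 for Atp2a1, 3.57 for Ryr1, 3.09 for Casq1, 3.07 for Pvalb and 1.63 for Sln. Casq2 (0.23, −1.05 to 1.71) and Atp2a2 (−0.26, −0.34 to −0.19) were the other 2. The fibro-adipogenic-like values of Pvalb, Trdn and Casq1 rested on 4, 4 and 5 UMIs. In MOV barcodes with markers of other cells, Pvalb stood at 1.36 CPM (0.587 to 2.68) and Sln at 1.19 CPM (0.478 to 2.45). Both intervals overlapped those of MuSCs, so these 2 genes were not clearly above background in MuSCs. MuSCs with at least 3 UMIs of Mki67 and Top2a, genes of dividing cells (476 of 1003), had lower levels of 3 of 10 genes by at least 2-fold, where 6.78% of all genes were lower, and 0 higher, where 8.5% were. These were Sln at −1.77, Casq1 at −1.50 and Ryr1 at −1.07 on the log2 scale. The dividing MuSCs were deeper, with 21041312 UMIs in 476 cells against 10613578 in 527. Without thinning, the share of cells with a UMI was 5.46% against 5.12% for Sln, 6.30% against 9.49% for Casq1 and 15.76% against 15.75% for Ryr1. Of the 50 Sln UMIs in the other MuSCs, 11 came from 1 cell. Atp2a2 was level at 0.01 (−0.08 to 0.11).

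In the wider list, 20 of 53 genes were at least 2-fold higher in late myocytes than in MuSCs and 4 lower, and 11 of the 15 genes of calcium release and the triad were higher, against 10.7% higher and 19.1% lower over all genes. The leading genes were Tnnc1, slow and cardiac troponin C, at 7.89 and Hrc, a histidine-rich calcium-binding protein of the SR, at 6.94. At the other end stood Itpr2, an inositol trisphosphate receptor, at −2.67 and Slc8a1, a sodium-calcium exchanger, at −1.78. In Myog cells 13 of 55 genes were higher than in MuSCs and 0 lower, against 4.18% and 6.42% of all genes. Cacna1s, the pore of the voltage sensor, led the comparison of late myocytes with Myog cells at 4.31.

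**Figure D4:**
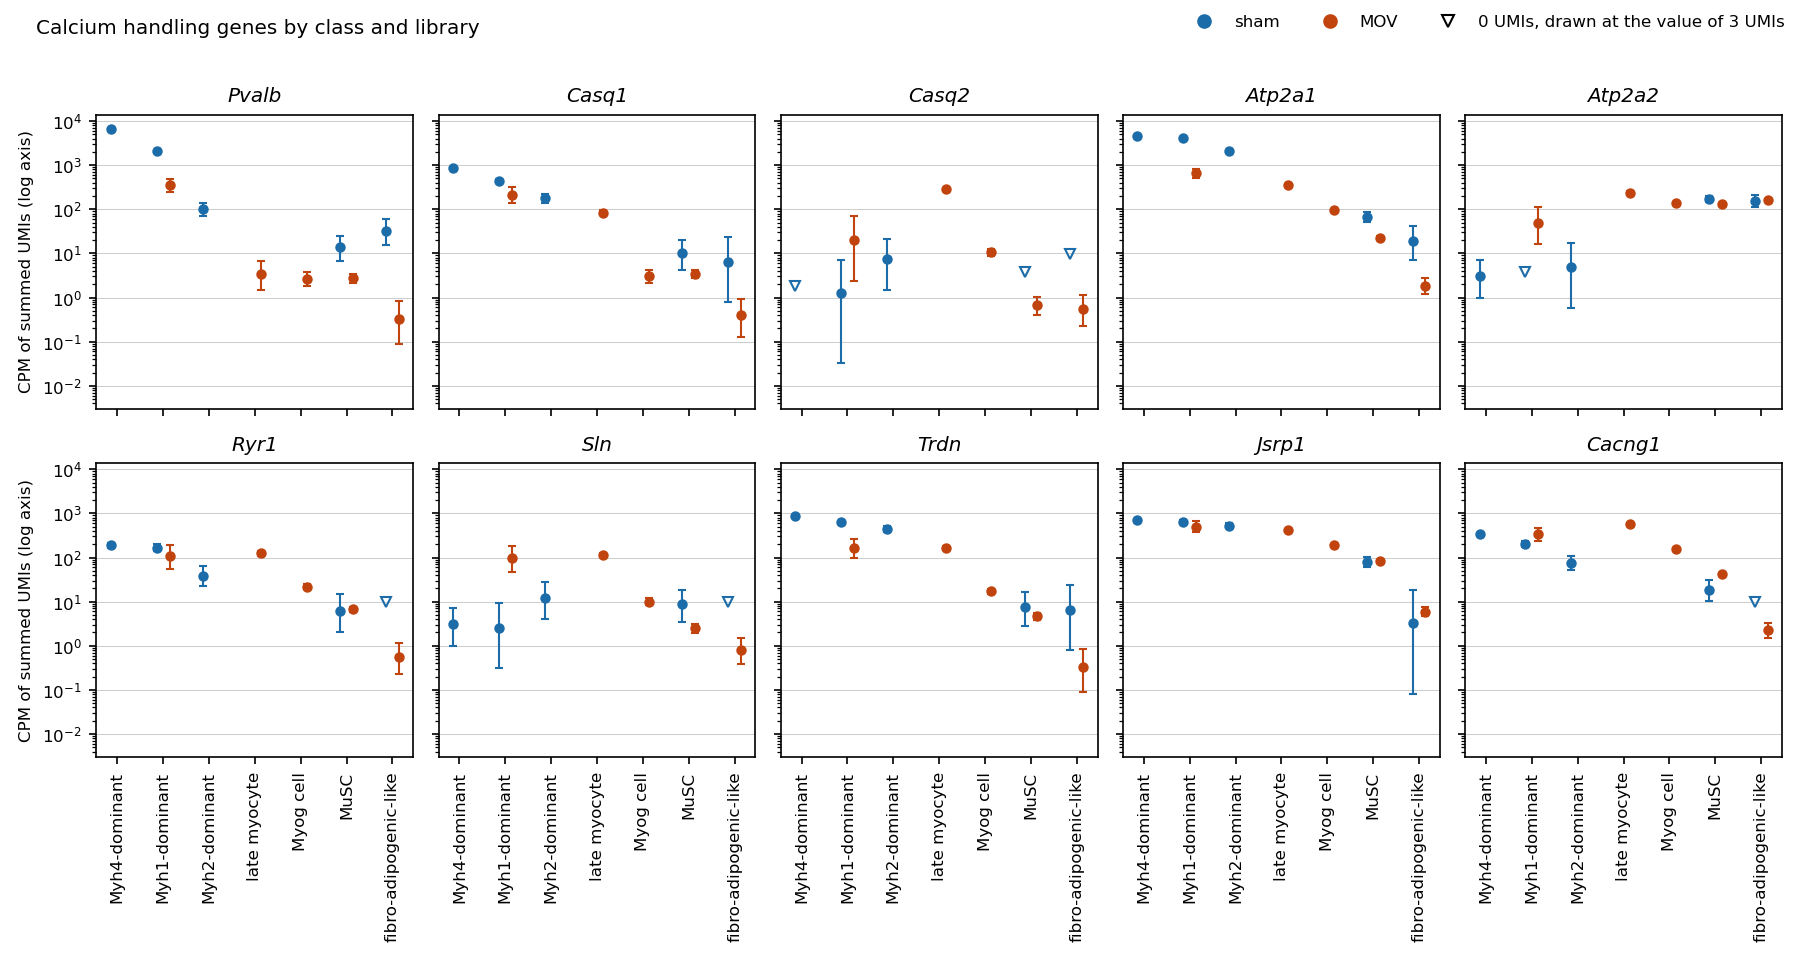
Level of each of the 10 genes (CPM, logarithmic axis) by class, with sham and MOV shown apart and bars for the exact 95% Poisson interval. Open triangles stand at the value of 3 UMIs where a class held 0. Classes drawn are Myh4-, Myh1- and Myh2-dominant droplets, late myocytes, Myog cells, MuSCs and fibro-adipogenic-like barcodes, where a library held at least 10. Pvalb stands at 6757 CPM in sham Myh4-dominant droplets and at 2.72 CPM in MOV MuSCs, and Casq2 is highest in MOV late myocytes at 285 CPM.

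The balance of the paired isoforms changed between new myocytes and fibres. A UMI is counted at the 3′ end of a transcript, so the share of 1 gene in a pair does not depend on transcript length. Casq2 made up 77.3% (74.3% to 80.03%) of the 853 calsequestrin UMIs of late myocytes and 77.8% (70.8% to 83.9%) of 167 in Myog cells, against 0.214% of 1872 in sham fibre droplets and 8.93% (2.96% to 19.6%) in MOV fibre droplets, where it rested on 5 Casq2 UMIs. In MOV MuSCs it was 16.2% (10.3% to 23.6%) of 130. Casq2 also made up 92.7% (80.1% to 98.5%) of 41 calsequestrin UMIs in sham other-cell barcodes and 89.6% (77.3% to 96.5%) of 48 in MOV. A high Casq2 share was thus not particular to new myocytes. Atp2a2 made up 85.6% (84.6% to 86.5%) of the SERCA UMIs of both genes in MOV MuSCs, 59.4% (57.6% to 61.2%) in Myog cells, 40.4% (37.8% to 43.1%) in late myocytes and 3.97% in MOV fibre droplets. In the sham library it was 71.7% (64.8% to 78.0%) in MuSCs and 0.0673% in fibre droplets. The pump pair thus shifted in each step, while the calsequestrin pair was alike in Myog cells and late myocytes and was reversed in fibre droplets. The Myog share rested on 37 Casq1 UMIs and on Casq2 UMIs in 28 of 279 cells, 25 of 130 from 1 cell. The MuSC share used a Casq2 level not above that of fibro-adipogenic-like barcodes, where the Casq2 share was 58.3% of 12 UMIs.

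**Figure D5:**
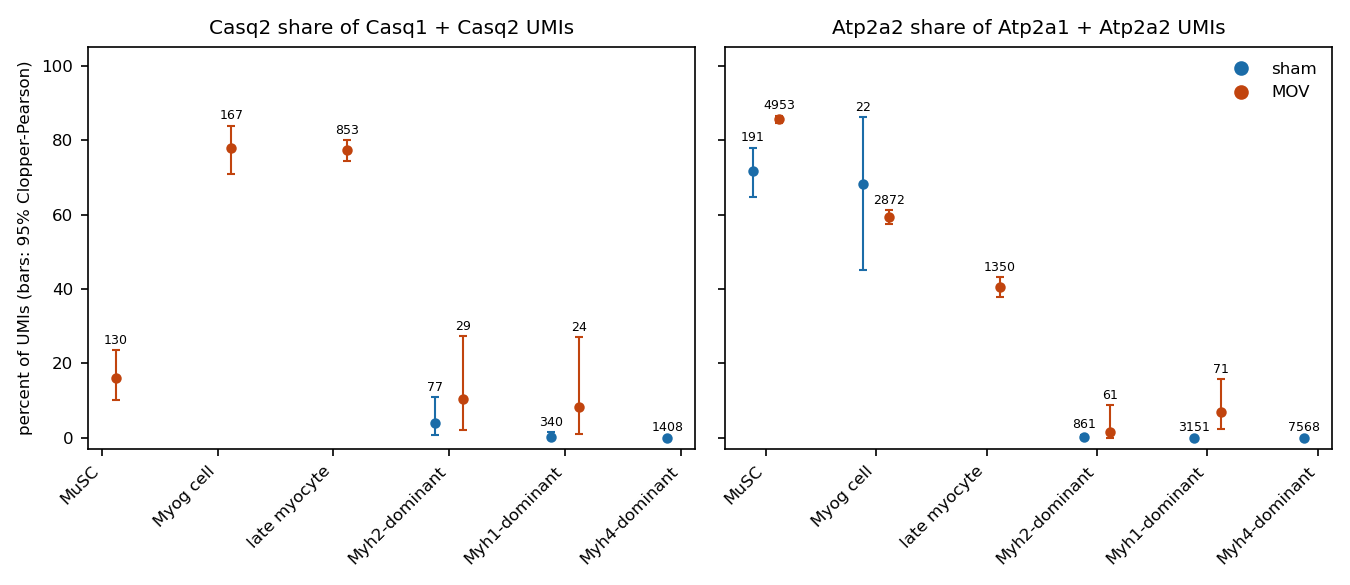
Share of Casq2 in the UMIs of Casq1 and Casq2, and of Atp2a2 in the UMIs of Atp2a1 and Atp2a2 (percent), by class and library, with exact 95% binomial intervals and the number of UMIs of both genes above each point. Late myocytes stand at 77.3% for Casq2 and sham fibre droplets at 0.214%.

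Fibre droplets were compared with MuSCs within each library. In sham, 7 of 8 genes were at least 2-fold higher in fibre droplets, where 23.5% of all genes were, and 1 (Atp2a2) was lower, where 48.4% of all genes were. In MOV, 9 of 10 were higher, where 20.3% of all genes were, and 1 (Atp2a2) was lower, where 29.1% were. Pvalb had the highest ratio in both, 8.35 (7.51 to 9.35) in sham and 6.79 (6.30 to 7.26) in MOV on the log2 scale. Atp2a2 stood at −5.97 (−7.21 to −4.95) in sham and −2.32 (−3.76 to −1.19) in MOV. These ratios include the barcodes found in both libraries. Leaving those out moved the median of all genes in the sham comparison from −0.87 to −0.54. The sham MuSC level of Pvalb, 13.7 CPM, was below the 32.4 CPM of sham fibro-adipogenic-like barcodes, and it is read as background. The sham MuSC level of Jsrp1, 80.9 CPM against 3.24 CPM, was above it. That of Atp2a1 was 67.2 CPM (50.5 to 87.7) against 19.4 CPM (7.13 to 42.3). Sham other-cell barcodes held Atp2a1 at 43.0 CPM (27.5 to 64.0), an interval that overlapped that of MuSCs.

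Against the late myocytes of the same library, the 23 MOV fibre droplets held more Pvalb and Casq1 and less Casq2 and Atp2a2. The log2 ratios were 6.44 (5.38 to 7.71) for Pvalb, 1.44 (0.97 to 1.90) for Casq1, −3.67 (−5.30 to −2.44) for Casq2 and −3.14 (−4.59 to −2.004) for Atp2a2. These were 2 of 10 genes higher and 2 lower, where 11.5% of all genes were higher and 29.2% lower. Of the 51 Casq1 UMIs of the fibre droplets, 21 came from 1 droplet. Without that droplet Casq1 stood at 158 CPM, under 2-fold above the 84.0 CPM of late myocytes. The lower values rested on 5 Casq2 UMIs and 6 Atp2a2 UMIs, in 3 droplets each. Ryr1, Sln, Trdn and Jsrp1 did not differ beyond the counting interval, with ratios from −0.53 to 0.47. Atp2a1 (0.90) and Cacng1 (−0.69) differed by less than 2-fold.

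MOV and sham fibre droplets were set side by side within the Myh1-dominant class, since MOV held 4 Myh4-dominant droplets, of which 3 shared a barcode with a deeper sham droplet. Levels within this class varied with the second MyHC in sham, and that mix was not compared between the libraries. Pvalb stood at 353 CPM (247 to 489) in 11 MOV droplets and 2066 CPM in 111 sham droplets, a log2 ratio of −2.55 (−3.07 to −2.07). It was seen in 9 of the 11, and 15 of its 36 UMIs came from 1 droplet. Atp2a1 stood at 647 CPM (501 to 824) and 4054 CPM, a log2 ratio of −2.65 (−3.02 to −2.30), and all 11 MOV droplets held it. Sums weigh deep droplets more. The median droplet held Atp2a1 at 1000 CPM in MOV and 2811 CPM in sham, and Pvalb at 373 and 1627 CPM. Trdn was lower by 1.91 (1.22 to 2.70) and Casq1 by 1.02 (0.39 to 1.71). Their medians were 0 and 63.1 CPM in MOV, and 536 and 365 CPM in sham. These 4 of 7 genes were at least 2-fold lower, where 19% of all genes were, and 0 were higher, where 24.9% were. Pvalb, Atp2a1 and Trdn were at least 2-fold lower under each of the scalings tried (Pvalb −3.72 to −1.91, Atp2a1 −3.82 to −2.004 and Trdn −3.08 to −1.27), whereas Casq1 came to −0.37 when scaled to pan-fibre genes.

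The other 3 genes had no direction that held under each scaling. Jsrp1 was at −0.34 (−0.79 to 0.08), and came to −1.51 under TMM and to 0.30 when scaled to pan-fibre genes. Ryr1 was at −0.62 (−1.66 to 0.27) with 11 MOV UMIs, and came to −1.79 and 0.02. Cacng1 was at 0.72 (0.14 to 1.27), and came to −0.45 and 1.37. The median droplet held 952, 63.1 and 44.8 CPM of Jsrp1, Ryr1 and Cacng1 in MOV, and 621, 0 and 67.2 CPM in sham. These medians ran opposite to the summed ratios of all 3 genes. In this comparison TMM moved the median of all genes by −1.17 and the pan-fibre scaling moved it by 0.68. The 11 MOV droplets also held RNA of other cells, with a 3-gene immune list summed to 2275 CPM against 34.7 CPM in sham Myh1-dominant droplets, and all 5 genes of a late-myocyte list summed to 1020.0 CPM against 27.0 CPM. The 6-gene MuSC list summed to 2118 CPM against 111 CPM, with 3 of 6 genes detected in MOV and with Vcam1 and Chrdl2 at 0. The part of these in the ratios was not tested. The library and the treatment cannot be told apart, because each treatment is 1 library.

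Over all fibre droplets, 4 of 8 genes (Pvalb, Atp2a1, Trdn and Casq1) were at least 2-fold lower in MOV, where 12.4% of all genes were, and Sln was higher by 5.26 (4.28 to 6.34), where 26.4% of all genes were higher. The mix of fibre types differs between the libraries in this comparison. Sln stood at 157 CPM (109 to 218) in the MOV droplets and 4.09 CPM in sham, and 18 of its 35 MOV UMIs came from 1 droplet, without which it stood at 78.9 CPM. Its UMIs were in 6 of 23 MOV and 9 of 441 sham fibre droplets.

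In the wider list, 7 of the 14 genes of calcium release and the triad were at least 2-fold lower in MOV than in sham Myh1-dominant droplets and 0 higher, while all 4 buffers and chaperones with enough UMIs were higher, Hspa5, an SR and endoplasmic reticulum chaperone, by 4.35. Tnnc1 was higher by 6.20, with 29 UMIs against 3. Hrc had a log2 ratio of −3.92, and Mrln, a micropeptide inhibitor of SERCA, was at least 7.43-fold lower, with 0 UMIs against 170. In all, 12 of 39 genes were higher and 9 lower, near the 24.9% and 19% of all genes, so that the counts are not a result about the list.

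Between MOV and sham MuSCs, 4 of 9 genes (Pvalb, Sln, Atp2a1 and Casq1) were at least 2-fold lower in MOV, where 11.2% of all genes were, and 1 (Cacng1) was higher, where 12.8% were. All 4 of the lower genes rested on few sham UMIs: 11 for Pvalb, 7 for Sln, 54 for Atp2a1 and 8 for Casq1. Of the barcodes, 441 of 1100 were fibre droplets in sham and 23 of 3854 in MOV, and the sham fibro-adipogenic-like barcodes held 32.4 CPM of Pvalb and 19.4 CPM of Atp2a1, against 0.322 and 1.85 CPM in MOV. The part of such fibre RNA in these ratios was not tested. The share of dividing cells also differed, at 476 of 1003 MOV and 6 of 60 sham MuSCs. Among the other MuSCs, Pvalb stood at 3.77 CPM in MOV and 18.3 CPM in sham, and Sln at 4.71 and 8.13 CPM. There Atp2a1 stood at 32.4 and 89.4 CPM and Casq1 at 6.03 and 14.2 CPM. The part of this mix in the ratios was not tested. Cacng1 stood at 41.7 CPM in MOV and 18.7 CPM in sham MuSCs, a log2 ratio of 1.16 (0.43 to 2.00), but 9 of its 15 sham UMIs came from 1 cell. Without the shared barcodes the ratio was 1.82, and with median-of-ratios scaling it was 0.93. Jsrp1 was level at 0.06 (−0.29 to 0.44), and the sign of this small value changed to −0.17 with median-of-ratios scaling.

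Genes with the profile most like each member were found over 13 sums of a class in a library, as Pearson's r of log2 levels among 5485 candidates. They describe a shared profile over these sums, which share libraries and fibre RNA, and carry no test. Pvalb was most like Smtnl2 (r = 0.99), Tmem233 (0.98) and Mybpc2 (0.98), and Atp2a1 was most like the fast troponin genes Tnnt3, Tnni2 and Tnnc2 (all 0.99). Casq1 was nearest to Myl1, a fast myosin light chain, at 0.98. Sln was nearest to Erbb3 (0.93) and to the slow troponin genes Tnnt1 and Tnni1. Single barcodes weighed on the Sln profile in MOV. They held 137 of 262 Sln UMIs in late myocytes, 75 of 122 in Myog cells and 8 of 10 in Myh1-dominant droplets. Casq2 was nearest to Smim5 (0.97), Atp2a2 to Nisch (0.99), Ryr1 to Tceal7 (0.97), Jsrp1 to Ank1 (0.99) and Cacng1 to Neb, the nebulin gene (0.98). Trdn was nearest to Mypn, a sarcomere protein (1.00). Among the members themselves, Casq1 and Trdn (0.98), Atp2a1 and Trdn (0.98) and Casq1 and Atp2a1 (0.97) were the most alike, Pvalb and Casq1 came to 0.91, Casq2 and Sln to 0.66, and Pvalb and Atp2a2 ran opposite at −0.88.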

How the data were processed

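Single-cell RNA-seq had been performed on cells sorted from plantaris muscle, with 1 sham and 1 MOV library. Per the labels and the methods, reads were aligned to mm10 (GRCm38) with Cell Ranger 6.0.0, and the authors deposited the filtered matrices of UMI counts, which hold whole numbers for 32285 genes without normalization. Seurat 4.0.2 and R 4.0.2 were used by the authors after that step. All 1100 sham and 3854 MOV barcodes were used, and unused sample columns numbered 0.

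Barcodes were classed by raw UMIs. Fibre droplets held at least 5 UMIs and 0.05% of UMIs of Myh1, Myh2 and Myh4, and more of these than of Myh3 and Myh8, and a gene with 60% or more of them was dominant. Late myocytes held at least 5 UMIs and 0.02% of UMIs of Myh3 and Myh8, Myog cells at least 3 Myog UMIs, MuSCs at least 2 Pax7 UMIs (or 1 with Myf5) and fibro-adipogenic-like barcodes at least 3 Pdgfra UMIs. Of the rest, 2352 barcodes were left unassigned and 34 were left out because their markers conflicted.

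UMIs were summed over a class and scaled to CPM. Where a class held 0 UMIs, the ratio was taken against 3 counts over the class as a bound, and a bound that pointed the other way was left out. No test was made, because the design has 1 library per condition. Doublets were scored with scanpy 1.11.5 and marked 10 sham and 119 MOV barcodes, which were kept and removed in an alternative. For other scalings, TMM factors were computed with edgeR 4.0.16, and median-of-ratios factors with DESeq2 1.42.0. In all, 19 alternatives were tried. The intervals were tried on simulated counts drawn with counting error only. Such counts hold no spread between cells, so they cannot show how the intervals behave where 1 cell holds many UMIs. Python 3.11.15, numpy 2.4.6, scipy 1.17.1, pandas 2.3.3, matplotlib 3.10.9 and R 4.3.3 were used.

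The members, the list of other calcium genes, the marker lists and the class rules were chosen with earlier results of these data known. All 10 members are named. Of the other list, the genes with the 2 highest and the 2 lowest ratios were eligible in each comparison with at least 20 UMIs, and for profiles the 3 genes with the highest r of log2(CPM + 10) among genes that reached 50 CPM in any sum of at least 10 barcodes. Some eligible genes are not reported here. Erln and Arln were not matched by symbol. Coordinates are from an annotation of GRCm38 (GENCODE M21), where Casq1, Atp2a1, Ryr1 and Trdn each overlap another gene on the opposite strand. How the counting treated strand is not given in the sources used here.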

Additional observations from a re-analysis of the deposited data

How the results depend on the processing

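Leaving out replicates was not possible with 1 library per condition. No paired analysis was possible because the 2 libraries share only 1 replicate number. No ratio past 2-fold changed its sign under the alternatives run. Without a filter on low counts, the members at least 2-fold lower numbered 2 for Myh4- against Myh2-dominant, 2 for Myh1- against Myh2-dominant and 2 for sham fibre droplets against MuSCs, and those at least 2-fold higher numbered 3 for MOV against sham in Myh1-dominant and 3 in all fibre droplets. For Myh4- against Myh1-dominant droplets, 2 genes were higher with mitochondrial shares under 10%, with TMM, with median-of-ratios scaling and without the shared barcodes, and 3 with dominance at 80%. Scaled to pan-fibre genes, 1 gene was higher in MOV Myh1-dominant droplets, and with median-of-ratios scaling 0 were higher in MOV MuSCs. TMM moved 35 of 123 single ratios beyond their counting interval, the pan-fibre scaling 13 of 36 and leaving out Malat1-holding fibre droplets 10 of 56. TMM moved the median of all genes by 0.17 in Myh4- against Myh1-dominant, 0.39 in Myh1- against Myh2-dominant, 1.13 in sham fibre droplets against MuSCs and −1.14 in MOV against sham fibre droplets, and median-of-ratios scaling moved it by −0.59 in Myh1-dominant, −0.37 in all fibre droplets and −0.23 in MuSCs between MOV and sham. The alternatives without shared barcodes, without Malat1-holding droplets and with thinning to 10000 UMIs were chosen after seeing the data. The cause of these moves was not tested. Casq2, Atp2a2 and Sln had too few UMIs in sham fibre droplets to be ordered between fibre types.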
